A study of Mus musculus with 6 samples.

Results

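Integrins are cell surface receptors made of 1 alpha and 1 beta chain, which tie the cell to matrix proteins and to ligands on other cells and pass signals in both directions. Leukocytes are best known for the beta2 integrins, whose beta chain Itgb2 pairs with Itgal in LFA1 and with Itgam in the receptor also called CD11b/CD18. Macrophages carry a further set built on other beta chains, and the genes of 9 of these chains are described here, 5 alpha chains (Itga4, Itga5, Itga6, Itga9 and Itgav) and 4 beta chains (Itgb1, Itgb3, Itgb5 and Itgb7). They were chosen by symbol out of 24411 genes in the files, and all 9 were measured well enough to be tested. The beta1 chain pairs with many alpha chains. With alpha4 it forms VLA-4, a receptor for VCAM1 and fibronectin, with alpha5 the main fibronectin receptor, with alpha6 a laminin receptor, and with alpha9 a receptor for tenascin C and related ligands. The alpha4 chain can instead pair with beta7, as a receptor for the gut homing ligand MAdCAM-1, and alphav pairs with beta3, beta5 or beta1, with beta3 and beta5 in receptors for vitronectin, osteopontin and coats on apoptotic cells.

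The macrophages came from C57BL/6 mice, an inbred strain, by culture of sorted monocytes of the bone marrow, and their RNA was sequenced. One group of 3 libraries came from monocytes sorted as LFA1-hi Itgam-hi and the other 3 libraries from monocytes sorted as LFA1-lo Itgam-lo, called LFA1-hi and LFA1-lo macrophages below by the state of the monocytes at the sort, before culture. Both groups were cultured alike for 7 days, in RPMI with 10% fetal bovine serum and M-CSF at 20 ng/ml, a cytokine that drives monocytes to become macrophages, and the medium was renewed on day 4. Whether the 3 libraries per group stem from different mice or dishes is not stated, and the p-values reflect only the spread among them, which may be technical.

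The libraries held 15191262 to 17614509 expected counts, the estimated reads or fragments assigned to genes, and a floor of 3 counts in a library corresponded to 0.170 to 0.197 CPM (counts per library scaled to the same total). All 10 macrophage markers of the list used were tested, and they summed to 14431 to 16519 CPM in LFA1-hi and 17012 to 22724 CPM in LFA1-lo libraries, with 1 marker higher and 5 lower in LFA1-hi. Lyz2, which made up most of these sums, was among the 5 by a narrow margin (edgeR adjusted p = 0.04996). Its call was kept in 6 of 19 alternative fits. Markers of dividing cells were higher in 6 of 6 cases, with summed levels of 1793 to 2040 CPM in LFA1-hi and 435 to 833 CPM in LFA1-lo libraries. Neutrophil markers summed to 3.75 to 5.74 CPM in LFA1-hi and 11.8 to 41.6 CPM in LFA1-lo libraries, with 3 of 4 tested markers lower. Endothelial markers summed to 22.4 to 27.1 CPM in LFA1-hi and 11.6 to 18.9 CPM in LFA1-lo, with 0 of 3 tested markers called by edgeR. Nearly all of the endothelial sum was Kdr (means of 22.7 CPM in LFA1-hi and 15.3 CPM in LFA1-lo), and Emcn and Cldn5 were at 0. The part of cell division or of these cells in the results on integrin chains was not tested. LFA1-lo replicate 2 was the least like its group, with Pearson correlations of log2 CPM of 0.969 and 0.972 with replicates 3 and 1, against 0.979 between replicates 1 and 3. Among the 9 chains it had the lowest LFA1-lo level of 7 and the highest of the other 2, Itga5 and Itga9. Values without it are given wherever they change the call of an integrin chain. In bulk RNA, fewer cells that express a gene and less RNA per cell cannot be told apart.

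Of the 9 chains, 3 fell in LFA1-hi macrophages (Itgb7, Itga6 and Itga4), 1 rose (Itgav) and 5 did not pass the test (Itgb1, Itga5, Itgb5, Itgb3 and Itga9). The test was edgeR's quasi-likelihood test with Benjamini-Hochberg adjustment across the 11692 genes that could be tested, and adjusted p under 0.05 was called. In the whole transcriptome it called 31.7% of genes, 16.1% higher and 15.6% lower in LFA1-hi, beside 44.4% of the 9 chains. Those were 1883 genes higher and 1822 lower in LFA1-hi, a split that was 2294 higher and 1471 lower on library totals alone and 2339 higher and 1319 lower on log2(FPKM + 0.1). Fold changes were modest, between 0.604-fold for Itgb7 and 1.23-fold for Itgav, and the median log2 fold change of the 9 chains was 0.01, beside −0.0047 over all tested genes. Values in TPM (abundance per length and library size) did not overlap between the 3 LFA1-hi and 3 LFA1-lo libraries for 5 of the 9. LFA1-hi lay above for 2 of them and below for 3. No overlap of TPM was seen for 47.2% of all tested genes (23.7% above and 23.5% below). In CPM, scaled by library totals alone, the groups overlapped for Itga4 and Itgb7. Leaving out LFA1-hi replicate 1, 2 or 3 left 3, 1 and 1 members called, beside 19.7%, 19.2% and 20.4% of all tested genes. Leaving out LFA1-lo replicate 1, 2 or 3 left 2, 5 and 4 members called, beside 23.0%, 42.3% and 29.5% of all genes.

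**Figure D1:**
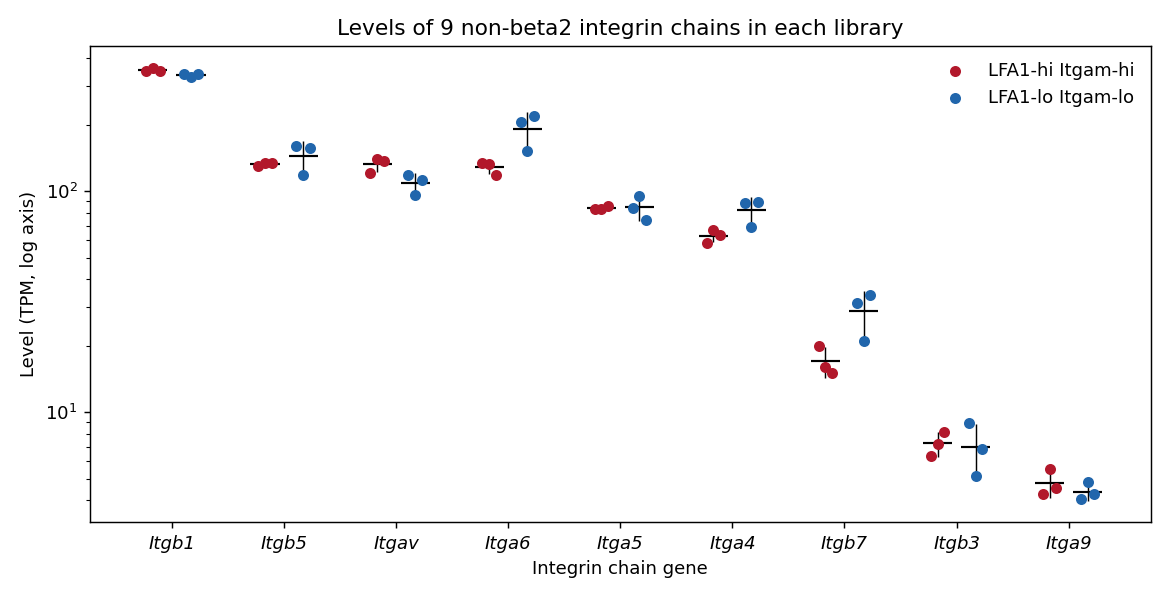
Levels of the 9 chains in TPM (transcript abundance per length and library size, log axis), with a point for each library, a bar for the mean and a line for the SD (n = 3 each), LFA1-hi in red and LFA1-lo in blue. Red points lie wholly below blue for Itga6, Itga4 and Itgb7 and wholly above for Itgav and, by a small margin, Itgb1.

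Itga6, the laminin-binding chain, had levels of 134, 133 and 119 TPM in LFA1-hi libraries, against 206, 152 and 219 TPM in LFA1-lo libraries. All LFA1-hi values lay below the lowest LFA1-lo value, which was that of replicate 2. The means were 129 ± 8.41 TPM in LFA1-hi and 192 ± 35.9 TPM in LFA1-lo macrophages (SD, n = 3 each), with a log2 fold change of −0.55 (SE 0.12) and an edgeR adjusted p = 0.00772. Itga6 was the member that passed in all 19 alternative fits, with log2 fold changes from −0.68 to −0.45 and adjusted p from 1.27e-06 to 0.0454. The files list 2 transcripts for it, and their abundance-weighted length was 6003 to 6011 bases in LFA1-hi and 6000 to 6018 bases in LFA1-lo libraries, and these ranges overlapped.

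Itgb7, the beta chain that shares the alpha4 partner with beta1, was at 20.04, 16.01 and 15.01 TPM in LFA1-hi libraries. In LFA1-lo libraries it was at 31.3, 21.1 and 33.9 TPM, and replicate 2 again came closest to the LFA1-hi values, without reaching them in TPM. In CPM the groups overlapped, with LFA1-lo replicate 2 at 28.2 and LFA1-hi replicate 1 at 28.6. The log2 fold change was −0.73 (SE 0.18, 95% interval of the fold 0.455 to 0.802, edgeR adjusted p = 0.0148), the largest in size among the 9 chains. Its level rested on 1218 counts over the LFA1-hi and 1944 counts over the LFA1-lo libraries. The call was lost without LFA1-hi replicate 2 (adjusted p = 0.0736), LFA1-hi replicate 3 (0.0677) or LFA1-lo replicate 1 (0.0572), while its adjusted p was 5.75e-05 without LFA1-lo replicate 2, the lowest over alternatives whose highest was 0.0736.

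Mast cells, basophils and lymphocytes carry beta7 integrins, so their markers were read beside Itgb7. Of 9 mast cell and basophil markers 2 could be tested and 1, Kit, was lower in LFA1-hi. Kit had 7 counts over the LFA1-hi and 51 counts over the LFA1-lo libraries, and 12 of 18 alternative fits kept its call. Together the list had 0.987 to 1.65 CPM in LFA1-hi and 1.35 to 6.52 CPM in LFA1-lo libraries, and Cpa3, Mcpt4, Tpsb2, Ms4a2, Fcer1a and Prss34 were at 0 in all 6 libraries. The 7 T and NK cell markers in the files summed to 0.0568 to 0.132 CPM in LFA1-hi and 0.175 to 0.411 CPM in LFA1-lo libraries, with Cd3e, Cd3d, Cd3g, Ncr1 and Gzma at 0 throughout. B cell markers summed to 2.33 to 3.07 CPM in LFA1-hi and 0.999 to 3.68 CPM in LFA1-lo libraries, and Pax5 and Ebf1 were at 0. Eosinophil markers, read as well, summed to 10.2 to 10.97 CPM in LFA1-hi and 16.2 to 33.2 CPM in LFA1-lo libraries. Of their 2 tested markers 1 was higher and 1 lower in LFA1-hi, and Epx and Il5ra were at 0. The part of these cells in the level of Itgb7 was not tested.

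Itga4, the chain that finds VCAM1 and fibronectin with beta1 and MAdCAM-1 with beta7, had 58.7, 66.55 and 63.3 TPM in LFA1-hi libraries. In LFA1-lo libraries it had 89.0, 68.85 and 89.3 TPM, so that replicate 2 lay just above the LFA1-hi range and the other libraries well above it. In CPM the groups overlapped, with LFA1-lo replicate 2 at 360.3 and LFA1-hi replicate 2 at 362.05. The log2 fold change was −0.37 (SE 0.10, edgeR adjusted p = 0.0185), a level 0.776 times that of LFA1-lo macrophages. The gene overlaps Cerkl in the annotation, which had 3 to 12 counts in a library, beside 5500 to 8036 for Itga4. The call was lost without LFA1-hi replicate 1, 2 or 3 (adjusted p = 0.093, 0.067 and 0.0648) or LFA1-lo replicate 1 (0.0719), on library totals alone (0.0513) and on log2(FPKM + 0.1) (0.087), over a range of 3.33e-05 to 0.093.

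Itgav, the alpha chain of the vitronectin receptors, was the single member to rise. It had 121, 139.7 and 136.5 TPM in LFA1-hi libraries, against 119, 96.5 and 112 TPM in LFA1-lo libraries. The ranges were separated narrowly, as LFA1-hi replicate 1 and LFA1-lo replicate 1 differed by little. The log2 fold change was 0.30 (SE 0.09, edgeR adjusted p = 0.026), and 14 of 19 alternative fits kept the call. Among the others it was lost without LFA1-hi replicate 2 (adjusted p = 0.103) or LFA1-hi replicate 3 (0.116), and on log2(TPM + 0.1) or log2(TPM + 1) (0.0758 and 0.0756), in a range of 0.0117 to 0.116.

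**Figure D2:**
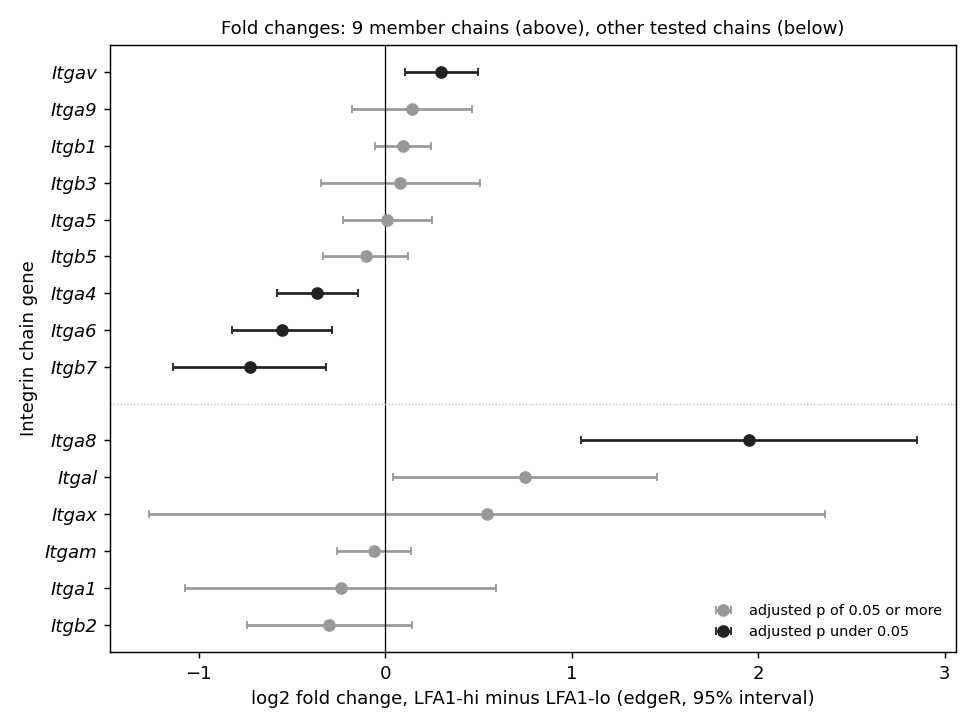
Fold changes of the 9 chains (above the dotted line) and of the 6 other integrin chains that could be tested (below it), as log2 of LFA1-hi over LFA1-lo with 95% intervals from edgeR, black where the adjusted p was under 0.05. Itgb7, Itga6 and Itga4 lie left of 0 and Itgav right of it, while Itga8 at 1.95 lies farther from 0 than any of the 9.

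Promoter sequence is shown for the chains that passed the test and have an entry in the promoter table from RefSeq, as the 250 bases before an annotated transcription start in GRCm38. The windows of Itgb7 and Itgav belong to a start inside the outermost edge of the gene. That of Itga9, read below, ends at base 118711691 of chromosome 9, far inside a gene that begins at 118606709. The windows are Itga4 on the plus strand (chr2:79255176-79255425), Itgb7 on the minus strand (chr15:102231936-102232185) and Itgav on the plus strand (chr2:83724147-83724396); 7 of the 9 members matched the table, and Itga6 and Itgb3 were not among them. Each is written 5′ to 3′ on the strand of its gene, with capitals at matches, on either strand, to GAGGAA (the core bound by PU.1, a factor of the macrophage lineage), GGGCGG (the GC box), TGANTCA (the AP-1 site) or CACGTG (the E-box of Mitf and Tfe factors).
Itga4: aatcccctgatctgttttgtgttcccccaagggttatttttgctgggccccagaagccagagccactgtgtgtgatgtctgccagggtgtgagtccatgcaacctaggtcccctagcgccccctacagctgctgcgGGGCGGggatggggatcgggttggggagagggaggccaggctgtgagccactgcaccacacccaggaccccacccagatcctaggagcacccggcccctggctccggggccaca
Itgb7: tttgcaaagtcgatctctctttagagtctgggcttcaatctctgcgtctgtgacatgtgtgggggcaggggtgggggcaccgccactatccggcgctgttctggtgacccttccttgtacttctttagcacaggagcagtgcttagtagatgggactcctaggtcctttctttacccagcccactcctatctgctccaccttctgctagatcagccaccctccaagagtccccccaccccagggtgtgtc
Itgav: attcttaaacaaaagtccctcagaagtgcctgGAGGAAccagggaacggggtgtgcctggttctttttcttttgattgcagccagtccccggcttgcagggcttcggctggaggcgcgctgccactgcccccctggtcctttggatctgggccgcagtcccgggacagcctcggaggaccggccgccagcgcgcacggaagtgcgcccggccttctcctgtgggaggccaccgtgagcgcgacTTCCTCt
The window of Itga4 had 1 match, a GC box 114 bases before the start, and that of its partner Itgb7 had no match to any of the 4 motifs. The window of Itgav, which rose, had 2 matches to GAGGAA, which start 218 and 7 bases before the start of transcription, the nearer on the opposite strand. None of these matches overlapped another. Among the uncalled members with an entry, Itgb1 and Itga5 each had 1 match to GAGGAA, Itgb1 had 1 and Itga5 had 2 GC boxes, Itgb5 had 3 GC boxes, and Itga9 had no match. Over all 32851 windows of this length in the table, 23.3% held GAGGAA, 32.7% GGGCGG, 6.75% TGANTCA and 6.02% CACGTG. The content of G and C was 64.0% for Itga4, 56.0% for Itgb7 and 64.4% for Itgav, against a median of 52.4% over all windows. These matches are letters in a window and show no binding.

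Itgb1, the common beta chain and the most abundant of the 9, had 349, 363 and 349 TPM in LFA1-hi libraries and 338, 331 and 338 TPM in LFA1-lo libraries. The groups did not overlap, yet the difference did not pass the test, with a log2 fold change of 0.10 (SE 0.07, edgeR adjusted p = 0.304, 95% interval of the fold 0.964 to 1.19). Its alpha partner Itga5, the fibronectin receptor chain, had 83.1, 83.1 and 85.8 TPM in LFA1-hi libraries and 84.3, 95.4 and 73.9 TPM in LFA1-lo libraries. The LFA1-hi libraries sat inside the LFA1-lo range, at a log2 fold change of 0.01 (SE 0.11, adjusted p = 0.948, interval of the fold 0.855 to 1.19). Itga9, whose product binds tenascin C with beta1, was the least abundant member, with 4.26, 5.54 and 4.55 TPM in LFA1-hi and 4.05, 4.82 and 4.28 TPM in LFA1-lo libraries, and these ranges overlapped (0.14, SE 0.14, adjusted p = 0.486).

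Beside beta1, alphav can pair with the products of Itgb5 and Itgb3, and neither gene passed the test. Itgb5 had 130.3, 134 and 133.7 TPM in LFA1-hi libraries, which lay inside the LFA1-lo values of 159.8, 119 and 157 TPM. Its log2 fold change was −0.10 (SE 0.10, edgeR adjusted p = 0.468), and without LFA1-lo replicate 2, which has the lowest of these values, it passed with −0.21 (adjusted p = 0.0114; over all alternatives 0.0114 to 0.871). Itgb3, the beta chain of the osteoclast and platelet receptors, had 6.32, 7.18 and 8.19 TPM in LFA1-hi and 8.96, 5.13 and 6.82 TPM in LFA1-lo libraries. The groups overlapped widely (0.08, SE 0.19, adjusted p = 0.779, interval of the fold 0.787 to 1.42), and the sign turned without LFA1-hi replicate 3 or LFA1-lo replicate 2. For each of the 5 members that did not pass, the 95% interval of the fold lay within 1.5-fold in both directions, which bounds the difference but does not show equal levels.

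Osteoclasts and platelets are known for Itgb3, and their markers were read beside it. Of 8 osteoclast markers 6 were tested, 1 higher (Acp5) and 2 lower (Mmp9 and Dcstamp) in LFA1-hi, with summed levels of 107 to 202 CPM in LFA1-hi and 157 to 598 CPM in LFA1-lo libraries and Calcr at 0. LFA1-lo replicate 2 was highest for both that fell. LFA1-lo replicates 1, 2 and 3 had 11.9, 92.9 and 10.04 TPM of Mmp9 and 57.7, 161 and 29.7 TPM of Dcstamp. Of 19 alternative fits, 13 kept the call of Mmp9, 18 that of Dcstamp and 19 that of Acp5. Megakaryocyte and platelet markers summed to 263 to 301 CPM in LFA1-hi and 218 to 301 CPM in LFA1-lo libraries, nearly all of it Pf4, with Gp9 at 0 and 1 of 3 tested markers, Ppbp, lower. The part of these cells in the levels of Itgb3 was not tested.

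**Figure D3:**
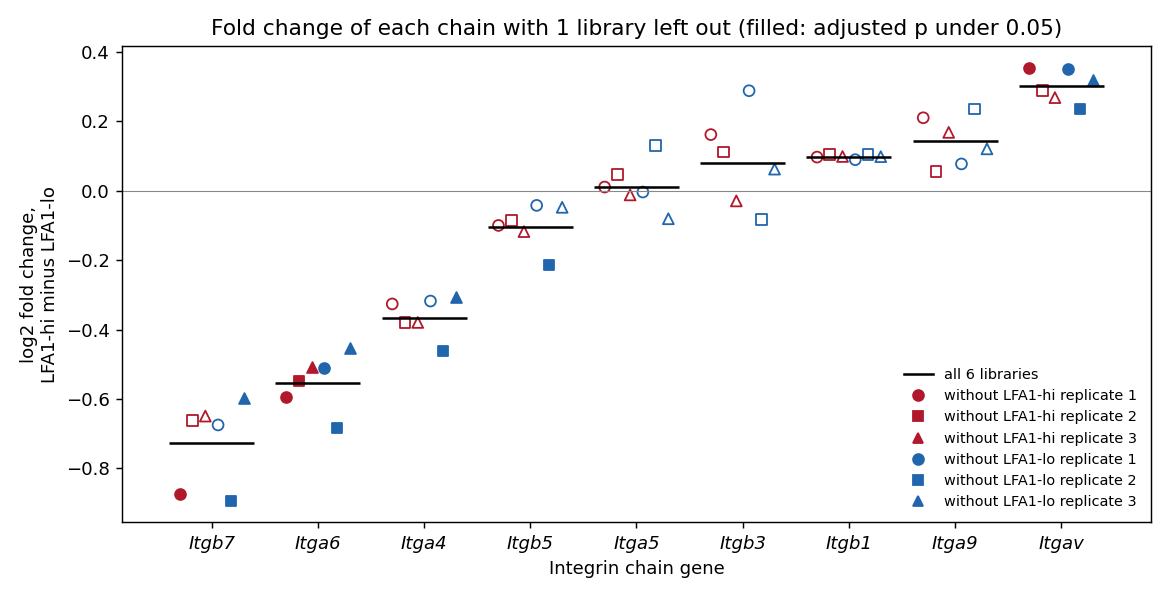
The log2 fold change of each chain (LFA1-hi minus LFA1-lo) with all 6 libraries (black bar) and with each library left out (red for LFA1-hi, blue for LFA1-lo, circle, square and triangle for replicates 1, 2 and 3), filled where the adjusted p was under 0.05. Itga6 stays filled in every position, while Itgb5 is filled only without LFA1-lo replicate 2.

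Level per length orders the chains within each group. In LFA1-hi macrophages Itgb1 (353.5 TPM) came first, then Itgb5 (132.7), Itgav (132.3) and Itga6 (129), neighbours whose libraries overlapped, and then Itga5 (84.0), Itga4 (62.8), Itgb7 (17.02), Itgb3 (7.23) and Itga9 (4.78), each apart from the next. In LFA1-lo macrophages Itga6 (192 TPM) followed Itgb1 (336 TPM) and overlapped Itgb5 (145), ahead of Itgav (109), and Itga5 (84.5) and Itga4 (82.4) overlapped before Itgb7 (28.8), Itgb3 (6.97) and Itga9 (4.38). Itga6 was thus the leading alpha chain of the set in LFA1-lo macrophages by mean TPM, and it lay within the libraries' spread of Itgav in LFA1-hi macrophages.

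The balance between chains that compete for a partner was compared as the log2 ratio of TPM in each library, with exact 2-sided permutation tests over the 6 libraries, where 3 against 3 cannot go below p = 0.1. Itgb7 over Itgb1, the beta choices of alpha4, was 0.0574, 0.0441 and 0.0431 in LFA1-hi and 0.0925, 0.0638 and 0.1002 in LFA1-lo libraries. This ratio had no overlap between the groups, with a difference of −0.81 in log2 (exact p = 0.1, adjusted p = 0.3 over the 4 ratios). The other 3 ratios overlapped between the groups, each with exact p = 0.3 and adjusted p = 0.3. Itga6 over Itga5 was 1.62, 1.60 and 1.39 in LFA1-hi and 2.45, 1.59 and 2.97 in LFA1-lo libraries, a difference of −0.56. Itga4 over Itga5 was 0.706, 0.801 and 0.738 in LFA1-hi and 1.06, 0.722 and 1.21 in LFA1-lo libraries, a difference of −0.38. In both, LFA1-lo replicate 2 sat among the LFA1-hi libraries or next to them. Itgb5 over Itgb3, which share alphav as a partner, was 20.6, 18.7 and 16.3 in LFA1-hi and 17.8, 23.1 and 23.03 in LFA1-lo libraries, a difference of −0.20.

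The member chains were set beside all 27 integrin chains in the files as shares of summed TPM. The 5 alpha members took 36.1% to 40.2% of the TPM of 18 alpha chains in LFA1-hi and 41.5% to 44.3% in LFA1-lo libraries, ranges that did not overlap, and the share of Itga6 alone was 10.5% to 13.3% in LFA1-hi and 15.1% to 19.3% in LFA1-lo. Itgav took 11.97% to 13.12% in LFA1-hi and 9.61% to 10.5% in LFA1-lo libraries, also without overlap. A share also depends on the chains outside the set. Of those above 1% in a library, Itgal took 6.40% to 7.38% in LFA1-hi and 2.24% to 4.997% in LFA1-lo libraries. Itga8 took 1.27% to 1.81% in LFA1-hi and 0.166% to 0.507% in LFA1-lo libraries. The shares of Itgax (4.89% to 11.1% in LFA1-hi, 1.88% to 10.5% in LFA1-lo) and Itgam overlapped. The separation of the members' share is thus not by itself a difference in their level. The 4 beta members took 38.0% to 40.7% of the TPM of 9 beta chains in LFA1-hi and 27.7% to 42.9% in LFA1-lo libraries, where replicate 2 had the lowest share and the highest share of Itgb2, 72.2%. These shares carry no test.

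**Figure D4:**
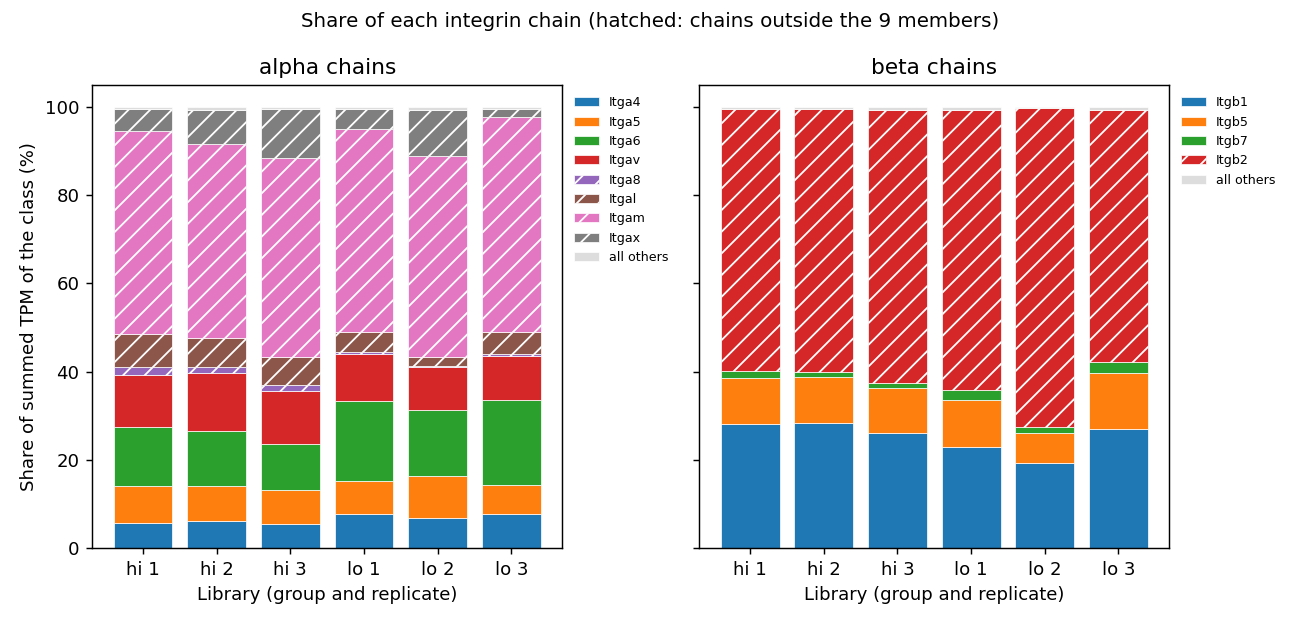
Share of each chain in the summed TPM (%) of the 18 alpha chains (left) and 9 beta chains (right) in each library, LFA1-hi replicates before LFA1-lo replicates, with chains outside the 9 members hatched and those under 1% in every library pooled. The green band of Itga6 is thinner in LFA1-hi (10.5% to 13.3%) than in LFA1-lo libraries (15.1% to 19.3%), and Itgb2 takes its widest share in LFA1-lo replicate 2.

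Of 18 integrin chains outside the set 6 could be tested and 1 passed, 16.7% against the 31.7% of all genes. This was Itga8, an alpha chain that binds RGD ligands with beta1. It had 18.2, 14.99 and 14.4 TPM in LFA1-hi libraries, against 5.75, 1.67 and 5.16 TPM in LFA1-lo libraries. All LFA1-hi values exceeded all LFA1-lo values by a wide margin, at a log2 fold change of 1.95 (SE 0.38, edgeR adjusted p = 0.0085, range over alternatives 2.28e-07 to 0.0381). The chains of the sort markers, Itgal (72.6 ± 1.90 TPM in LFA1-hi and 44.1 ± 18.8 TPM in LFA1-lo, n = 3 each) and Itgam (481 ± 26.3 TPM in LFA1-hi and 510.3 ± 49.2 TPM in LFA1-lo), did not pass (edgeR adjusted p = 0.0997 and 0.646). The libraries of Itgal nevertheless did not overlap, with 74.4, 70.6 and 72.7 TPM in LFA1-hi and 53.0, 22.5 and 56.8 TPM in LFA1-lo, while those of Itgam did. Without LFA1-lo replicate 2, Itgal passed too (adjusted p = 0.000143), and without LFA1-lo replicate 3, Itgb2 did (adjusted p = 0.0259). The remaining 12 chains had at most 48 counts over all 6 libraries, and Itgb6 had 0, which allows up to 3 counts in a library, or 0.170 to 0.197 CPM.

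Macrophages can make matrix ligands of these integrins themselves. Of a list of 34 ligand genes 14 were tested, 3 rose and 5 fell in LFA1-hi macrophages (median log2 fold change −0.06), 57.1% against the 31.7% of all genes. Thbs1, thrombospondin 1, a matrix protein read by alphav integrins, had 2.87, 5.21 and 4.81 TPM in LFA1-hi libraries, against 35.3, 56.6 and 52.3 TPM in LFA1-lo libraries, a wide separation (−3.47, SE 0.27, edgeR adjusted p = 0.000155). Lama3, a laminin alpha chain and so a ligand of alpha6, fell (−2.10, SE 0.16, adjusted p = 4.77e-05), with 2.89 ± 0.652 TPM in LFA1-hi and 12.6 ± 1.499 TPM in LFA1-lo (SD, n = 3 each). The fifth ligand that fell was Tgfb1, whose latent form is held and activated by alphav integrins (−0.50, adjusted p = 0.00253). Edil3, an alphav ligand, fell by 3.28 on the log2 scale (adjusted p = 0.00028), and by 3.95 without LFA1-hi replicate 3. Tnc, tenascin C, a ligand of alpha9, had 3 counts over the LFA1-hi libraries and 159 over the LFA1-lo libraries, a ratio of 0.0189 (95% counting interval 0.00386 to 0.0563, which covers counting error only). Its 3 counts lay in LFA1-hi replicate 3, and without that library Tnc was at least 34.4-fold lower, with 3 counts over the group as the floor.

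Ligands that rose were Spp1, Fn1 and, named after its value was seen, Adam15 (0.32, edgeR adjusted p = 0.0276), a membrane protease with an RGD motif in human. Spp1, osteopontin, an RGD ligand of alphav integrins and also bound by alpha4 and alpha9, had 8789, 8144 and 9828 TPM in LFA1-hi libraries, against 6781, 6183 and 4625 TPM in LFA1-lo libraries (log2 fold change 0.63, SE 0.15, edgeR adjusted p = 0.0117). Every LFA1-hi library exceeded every LFA1-lo library, though the call was lost without LFA1-hi replicate 3 (adjusted p = 0.0563, in a range from 0.000306). Fn1, fibronectin, the ligand of alpha5 and alpha4, had 3.21, 4.81 and 6.12 TPM in LFA1-hi and 1.14, 2.12 and 0.45 TPM in LFA1-lo libraries (1.95, SE 0.50, adjusted p = 0.024), a low level in both groups. The Fn1 call was lost without LFA1-hi replicate 2 or 3 or LFA1-lo replicate 1 and with no filter (adjusted p = 0.0534, 0.0731, 0.0649 and 0.0726, the lowest over alternatives being 0.00665), and leaving out LFA1-lo replicate 2 moved the log2 fold change to 2.62. Ligand calls numbered 5 without LFA1-hi replicate 3.

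Of 44 listed genes that switch integrins on or link their tails to actin, 40 were tested, of which 14 fell and 3 rose (median −0.06), 42.5% in all against the 31.7% of all genes. Talin 1 and kindlin 3 are the proteins that bind beta tails to activate them in leukocytes. Tln1 did not pass (351 TPM in LFA1-hi and 408 TPM in LFA1-lo on average, log2 fold change −0.20, edgeR adjusted p = 0.285), and Fermt3, which encodes kindlin 3, fell by 0.26 on the log2 scale (adjusted p = 0.0375); both, like Tgfb1 above, were named after their values were seen. Src, a kinase of adhesion signalling, had 1.47, 1.02 and 1.91 TPM in LFA1-hi libraries, against 6.42, 12.1 and 5.70 TPM in LFA1-lo libraries, without overlap (−2.43, SE 0.36, adjusted p = 0.00161). Cd81, a tetraspanin that associates with alpha4 beta1, fell (144 ± 14.1 TPM in LFA1-hi and 362.5 ± 103 TPM in LFA1-lo, n = 3 each; −1.30, adjusted p = 0.00199).

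Activators of the small GTPase Rap1, which acts upstream of talin, moved in opposite directions. Rasgrp3 fell (−1.83, SE 0.29, edgeR adjusted p = 0.00302), with 6.56, 5.98 and 10.2 TPM in LFA1-hi and 36.5, 18.6 and 27.7 TPM in LFA1-lo libraries, and the groups were far apart. Rasgrp2, or CalDAG-GEFI, rose (2.24, SE 0.52, adjusted p = 0.0105), with 4.82 ± 1.41 TPM in LFA1-hi and 1.02 ± 0.693 TPM in LFA1-lo (SD, n = 3 each), a call lost without LFA1-hi replicate 2 (adjusted p = 0.0534, in a range from 0.000116). Lims2, or PINCH2, a partner of integrin-linked kinase, fell (−3.37, adjusted p = 0.00261) and Tln2, talin 2, rose (2.52, adjusted p = 0.0018). Both had few counts, 13 in LFA1-hi and 132 in LFA1-lo libraries for Lims2 and 133 in LFA1-hi and 22 in LFA1-lo libraries for Tln2. The Tln2 call was lost on log2(TPM + 1) (adjusted p = 0.072). Calls in this list numbered 10, 10 and 11 without LFA1-hi replicates 1, 2 and 3.

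The genes with levels most like those of Itga6 and Itgb7, the members with the smallest adjusted p, were taken by Pearson correlation of log2 CPM over the 6 libraries among 8323 other genes of at least 10 mean CPM. For Itga6 these were Tifa (r = 0.999), an adaptor of TRAF signalling, Slc17a5 (0.997), the lysosomal sialic acid exporter, and Cdkn1b (0.997), the cell cycle inhibitor p27. For Itgb7 they were Mob3a (0.998), Fcho1 (0.998), a protein of clathrin-coated pits, and Ebi3 (0.997), a subunit of interleukin-27. The 6 points share the division into groups and the position of LFA1-lo replicate 2, so these values describe the libraries and carry no test.

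In GRCm38 the genes lie on chromosome 2 for Itga4 (79255426 to 79333114), Itga6 (71786886 to 71858427) and Itgav (83722303 to 83806917), on chromosome 15 for Itga5 (103344286 to 103366791) and Itgb7 (102215994 to 102233405), and apart from each other for Itga9 (chromosome 9, 118606709 to 118901003), Itgb1 (chromosome 8, 128685654 to 128733579), Itgb3 (chromosome 11, 104608000 to 104670476) and Itgb5 (chromosome 16, 33829665 to 33949338). Itga5, Itga9 and Itgav also overlap small RNA, long noncoding or pseudogene entries, and reads there could be assigned to either gene.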

How the data were processed

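Gene-level files of 6 libraries were used, 3 LFA1-hi and 3 LFA1-lo. Trim Galore, bcl2fastq, RSEM and GRCm38 appear in the submitters' processing notes, and versions, aligner and strand setting were not given in the sources used. Per the file headers, the deposited expected counts are RSEM estimates and not normalized, the deposited TPM values are scaled by effective length and library, and the deposited FPKM values likewise.

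Expected counts were rounded, filtered with filterByExpr (11692 of 24411 genes kept), scaled by TMM and tested in edgeR 4.0.16 (R 4.3.3) by a robust quasi-likelihood fit, LFA1-hi minus LFA1-lo, with Benjamini-Hochberg adjustment and a threshold of 0.05. The procedure was tested on a single simulated data set, where false calls came well more often than the threshold sets. Most of the smaller changes put in were not called, and some of the larger ones were missed too. The simulation changed far fewer genes than were called here, which makes the adjustment stricter. Its rates of recovery therefore do not measure those of the test on these data. Alternatives were 3 other scalings, 2 other filters, unrounded counts, a replicate block, a fit that is not robust, DESeq2 1.42.0, limma 3.58.1 (voom; also limma-trend for TPM with 0.1 or 1 added and for FPKM with 0.1 added, in log2) and leaving out each library. TPM ratios were tested by exact permutation (scipy 1.17.1).

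Named genes were the 9 members, other integrin chains that passed, up to 6 called genes with the largest changes from each list, and 3 genes most like each of 2 members. Itgal, Itgam, Itgb2, Tln1, Fermt3, Tgfb1 and Adam15 fall outside this rule and were named after their values were seen. Itgax, Itgb6, Cerkl and the markers named also fall outside it. Members and lists were chosen with earlier results of these data known. Some marker genes are not reported here by name. Intervals for counts cover counting error only.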

Additional observations from a re-analysis of the deposited data

How the results depend on the processing

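All 4 called members kept their sign in each of the 19 alternative fits, and the count of members passing was 3 to 4 outside the fits that leave out a library. Leaving out 1 library gave 1 to 5 members (1 without LFA1-hi replicate 2 or 3, 2 without LFA1-lo replicate 1), 2288 to 5032 genes in all, 1 to 2 other integrin chains, 5 to 9 ligands and 10 to 24 activation and adaptor genes. These fits have fewer libraries. Signs turned for 3 chains that did not pass. Itga5 was at −0.0014 on log2(TPM + 0.1) and −0.00146 on log2(TPM + 1), and at −0.0806 to 0.13 without a library. Itgb3 was at −0.0818 to 0.29 without a library. Itgam turned to 0.0013 on library totals alone and 0.0056 on log2(FPKM + 0.1). The cause was not tested.

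Libraries with the same replicate number did not deviate together (correlations of 0.037, 0.018 and −0.072), and no label says that a number marks a shared source, so they were treated as unpaired. With the replicate block 3253 genes and 3 members passed, Itgav being lost (edgeR adjusted p = 0.0562). The log2 ratio of Itgb7 over Itgb1 ran from −1.01 to −0.68 without a library. Depth limits the chains and ligands at a few counts, where levels under 0.170 to 0.197 CPM cannot be told from 0.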
